A study of Mus musculus with 22 samples.

Results

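Sd scores of 5 mouse genes, Mapt, App, Prnp, Thy1 and Prnd, were followed through cortex RNA-seq libraries of mouse models of Alzheimer disease. The 5 genes were taken by symbol from tables of 15705 genes at 6 months and 15192 genes at 12 months, and each had 1 row in either table. Mapt (ENSMUSG00000018411, tau) and App (ENSMUSG00000022892, the amyloid precursor protein) are the mouse homologues of human transgenes. Prnp (ENSMUSG00000079037, the prion protein) and Thy1 (ENSMUSG00000032011, a surface glycoprotein) are the genes whose promoters often drive such transgenes. Prnd (ENSMUSG00000027338) lies next to Prnp and was chosen by its measured score, which was higher in Tau P301S than in WT mice. Its values in that comparison are therefore a description with no test.

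The Sd score is a ratio per gene and library, deposited with 3 decimals. It is read here as a measure of deficient splicing, so that larger scores mean relatively more signal from unspliced RNA. At 6 months there were 12 libraries, 3 each of WT, N40K, 5xFAD and dTg mice, which were littermates from matings of N40K-Tg +/- with FAD +/- animals. The N40K transgene makes the N-terminal portion of the protein encoded by Snrnp70, part of the U1 particle that recognises 5′ splice sites. 5xFAD mice carry mutant human transgenes, that of APP among them, and dTg mice carry both N40K and the 5xFAD transgenes. The 12-month table held 10 libraries, 4 of WT and 6 of Tau P301S mice. The latter have a transgene of mutant human tau, and both were littermates from matings of Tau P301S +/- with WT mice. The labels leave out strain, sex, copy number and the promoter of each transgene. As background, the widely used 5xFAD line expresses its transgenes from the Thy1 promoter, and P301S tau lines have been made with the Prnp or the Thy1 promoter. The sources do not say how reads from the transgenes were kept apart from those of mouse Mapt, App and Snrnp70. Transcript abundance was not analysed here. A score therefore does not measure RNA amount, and neither the transgenes nor the tissue were checked from expression. In these bulk samples a change in a cell type's number and a change within its cells cannot be told apart.

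Tau is a microtubule-associated protein of axons, and its mutant forms aggregate in neurons. The amyloid precursor protein is a membrane protein that secretases cut to release amyloid beta. The prion protein and Thy1 are both held at the neuronal surface by a GPI anchor. Prnd encodes Doppel, a relative of the prion protein that is made mostly in the testis and is normally scarce in adult brain. Transcripts that start at the Prnp promoter and run on into Prnd are known from mice that lack parts of Prnp.

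Prnp and Prnd stand on the same strand with 12431 bases between them in the GENCODE M21 annotation (GRCm38; the scores were made on mm9). The annotation also holds Prn, a read-through gene across both. Its transcript Prn-202 has 4 exons, of which 2 overlap exons of Prnp and 1 overlaps an exon of Prnd. Reads from an exon that Prn shares with Prnp or Prnd could be counted to Prn or to that gene. The scores of Prnp and Prnd are uncertain to that extent. How such reads were counted is not stated, so whether the 2 scores depend on each other is not known. Prn itself was not analysed here. The RefSeq sequences of the 250 bases before each start (GRCm38.p6, plus strand, chr2:131909678-131909927 for Prnp and chr2:131950611-131950860 for Prnd) are shown because the 2 neighbours carry the comparison of promoter donor and adjacent gene. Capitals mark 4 motifs on either strand: TATATA (which reads the same on both), the TATA box letters TATAAA, the GC box GGGCGG and the CCAAT box. No 2 marked stretches overlap.
Prnp: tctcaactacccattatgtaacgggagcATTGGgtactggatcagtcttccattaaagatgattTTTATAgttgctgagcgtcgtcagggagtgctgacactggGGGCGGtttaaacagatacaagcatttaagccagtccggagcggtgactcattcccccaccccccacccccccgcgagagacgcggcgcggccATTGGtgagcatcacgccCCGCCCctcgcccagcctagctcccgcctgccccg
Prnd: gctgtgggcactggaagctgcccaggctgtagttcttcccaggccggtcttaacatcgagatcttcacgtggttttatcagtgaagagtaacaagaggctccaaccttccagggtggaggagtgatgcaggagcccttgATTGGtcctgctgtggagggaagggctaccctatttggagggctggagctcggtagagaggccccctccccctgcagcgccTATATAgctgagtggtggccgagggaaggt
The Prnd window holds 1 TATATA, found in 5.25% of 32851 such windows of the mouse genome, and 1 CCAAT, found in 33.8%. The Prnp window holds 2 GGGCGG (32.7% of windows hold it), 2 CCAAT and 1 TATAAA (12.4%). G and C made up 58.8% of the Prnp and 58% of the Prnd window, against a median of 52.4%.

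The gene models differ widely. The longest protein-coding transcript of App has 17 introns with 215915 bases of intron, that of Mapt 9 introns with 95448 bases, and that of Prnp 2 introns with 26318 bases. Thy1 has 3 introns with 3461 bases and Prnd 2 introns with 3301 bases. The sources do not say whether the score is corrected for intron length, so levels are set beside each other between groups of 1 gene and not between genes.

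Some libraries stood apart over all genes. At 12 months the median score of a library was 0.013 in WT replicates 1 and 2, 0.017 in WT replicates 3 and 4, and 0.014 to 0.016 in the Tau P301S libraries. At 6 months N40K replicate 1 (0.036) and dTg replicate 2 (0.035) stood highest, against 0.029 to 0.033 in the other 10 libraries. The N40K and Tau P301S differences of Mapt, Prnp, Prnd and Thy1 are given with and without these libraries. The depth of each library is unknown, since the tables hold scores only.

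App was listed at 0 in all 22 libraries, so it showed no difference between any groups and was not tested. With rounding to the nearest step, a listed 0 stands for any score under 0.0005. At 6 months 28 of 15705 genes (0.178%) were at 0 in every library, and at 12 months 66 of 15192 (0.434%). App was 1 of 13 genes at 0 in all libraries of both tables, out of 12952 shared genes. The 5xFAD and dTg mice, which carry a human APP transgene, were at 0 as well.

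Prnd is described first because its Tau P301S score chose it. In the 12-month WT libraries its scores were 0.016, 0.016, 0.019 and 0.020. In the Tau P301S libraries they were 0.034, 0.030, 0.046, 0.033, 0.038 and 0.036 in replicates 1 to 6. Every Tau P301S library thus stood above every WT library, and the lowest Tau P301S value (0.030, replicate 2) was 0.010 above the highest WT value (0.020, replicate 4). The means were 0.0362 ± 0.00553 (SD, n = 6) in Tau P301S and 0.0178 ± 0.00206 (SD, n = 4) in WT, a ratio of 2.03. On the scale log2(score + 0.002), used for all differences below, Prnd was 0.94 higher, and 37 of 15192 genes (0.244%) had a larger rise. Over the table, 44 genes (0.29%) were higher in Tau P301S with no overlap of libraries and 151 (0.994%) were lower. Since Prnd was chosen for this difference, nothing is read from its place among them. The difference was 1.07 against WT replicates 1 and 2 alone and 0.82 against WT replicates 3 and 4 alone.

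**Figure D1:**
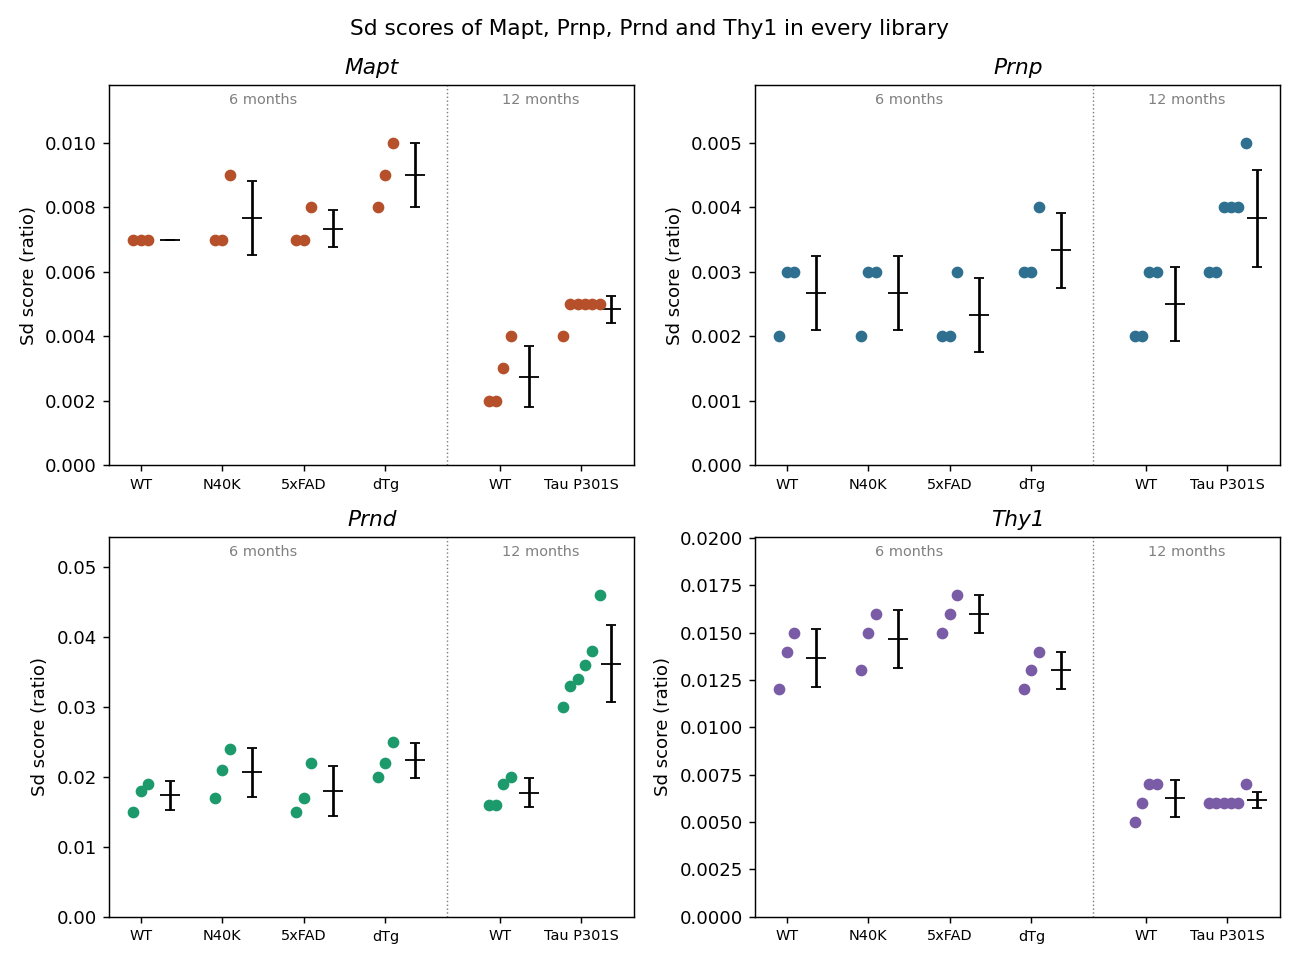
Sd scores (ratio, axes from 0) of Mapt, Prnp, Prnd and Thy1 in each library by group, with the mean and SD beside the points; the dotted line parts the tables of 6 and 12 months, which were made separately. Prnd lies at 0.030 to 0.046 in Tau P301S, above all its other libraries, while Thy1 overlaps between Tau P301S and WT.

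At 6 months, which the choice of Prnd did not use, its scores lay between 0.015 and 0.025. They were 0.018, 0.015 and 0.019 in WT, 0.024, 0.017 and 0.021 in N40K, 0.017, 0.022 and 0.015 in 5xFAD, and 0.020, 0.025 and 0.022 in dTg mice. The order of means was WT (0.0173 ± 0.00208), 5xFAD (0.018 ± 0.00361), N40K (0.0207 ± 0.00351) and dTg (0.0223 ± 0.00252; SD, n = 3 each), and neighbours in this order overlapped. All 6-month libraries of Prnd lay below the lowest Tau P301S library, but the tables were not tested against each other. The 12-month WT mean of Prnd was 1.02 times that at 6 months, whereas the median ratio over 12900 shared genes was 0.628. Of these genes 25.4% had a higher ratio than Prnd. Age and the separate making of the tables cannot be told apart in these ratios.

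Prnp, whose promoter is used for transgenes, had low scores with few distinct values. At 12 months it stood at 0.002, 0.002, 0.003 and 0.003 in the WT libraries and at 0.003, 0.003, 0.005, 0.004, 0.004 and 0.004 in Tau P301S replicates 1 to 6. The 2 lowest Tau P301S libraries (replicates 1 and 2) met the 2 highest WT libraries at 0.003, and the other 4 were higher. The means were 0.00383 ± 0.000753 (SD, n = 6) and 0.0025 ± 0.000577 (SD, n = 4), a ratio of 1.53. Prnp was 0.37 higher on the log2 scale (SE 0.116) and did not pass over all genes (limma, unadjusted p = 0.0103, adjusted p = 0.436). In an exact permutation test of Prnp alone, two-sided over 210 regroupings, p was 0.0333, not adjusted. Each step of 0.001 is a large part of these scores: with every score moved by 0.0005 against the difference, 0.09 of it was left. The difference was 0.53 against WT replicates 1 and 2 alone (limma, adjusted p = 0.185) and 0.21 against WT replicates 3 and 4 alone (adjusted p = 0.452).

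Mapt, the homologue of the tau transgene, was also higher in Tau P301S mice but did not pass. Its scores were 0.002, 0.002, 0.003 and 0.004 in the WT libraries, and 0.005 in every Tau P301S library except replicate 2, which had 0.004. WT replicate 4 and Tau P301S replicate 2 met at 0.004, and the other libraries were separated. The means were 0.00483 ± 0.000408 (SD, n = 6) and 0.00275 ± 0.000957 (SD, n = 4), a ratio of 1.76. The log2 difference was 0.54 (SE 0.117, 95% interval 0.28 to 0.81; limma, unadjusted p = 0.00117, adjusted p = 0.302 over 15192 genes). The exact permutation p for Mapt alone was 0.00952, two-sided and not adjusted, and 263 genes (1.73%) had a larger rise. Against WT replicates 1 and 2 alone, the libraries of lower median, the difference was 0.77 and passed (limma, adjusted p = 0.0077), and against WT replicates 3 and 4 alone it was 0.32 and did not (adjusted p = 0.177). With every score moved by 0.0005 against the difference 0.29 of it was left, and with a pseudocount of 0.01 it was 0.22 (limma, adjusted p = 0.293 and 0.296).

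Thy1, the other promoter donor, overlapped between Tau P301S and WT mice. Its scores were 0.006, 0.005, 0.007 and 0.007 in WT, and 0.006 in all Tau P301S libraries but replicate 6, which had 0.007. The log2 difference was −0.01 with a 95% interval from −0.18 to 0.17 (limma, adjusted p = 1), so changes beyond that size lay outside the interval. It was −0.14 against WT replicates 3 and 4 alone (limma, unadjusted p = 0.0386, adjusted p = 0.261) and 0.13 against WT replicates 1 and 2 alone (unadjusted p = 0.124, adjusted p = 0.45). The means were 0.00617 ± 0.000408 (SD, n = 6) and 0.00625 ± 0.000957 (SD, n = 4). Thus of the 3 genes tested in Tau P301S mice none passed (limma; 2 at an unadjusted p under 0.05), where 1 of 15192 genes (0.00658%) passed over the whole table and 8.28% had an unadjusted p under 0.05. That 1 gene was the neuronal migration gene Astn1, named after its value was seen.

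**Figure D2:**
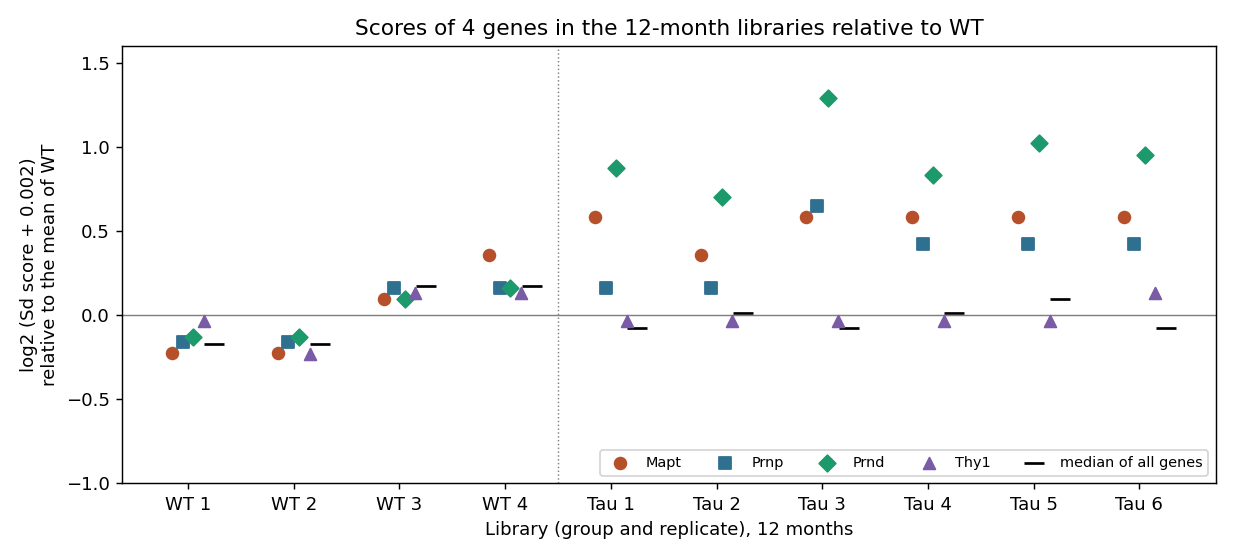
Scores of Mapt, Prnp, Prnd and Thy1 in the 10 libraries of the 12-month table as log2(score + 0.002) relative to the mean of the 4 WT libraries, with the median of all genes as a black bar. WT replicates 1 and 2 lie below 0 and WT replicates 3 and 4 above it for all 4 genes and the median, and the Prnd points of all Tau P301S libraries lie above the WT points of Prnd.

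The spread among WT libraries ran the same way in these genes. Prnd, Prnp and Mapt were each lower in WT replicates 1 and 2 than in replicates 3 and 4, as was Thy1 (0.006 and 0.005 against 0.007 and 0.007) and as were the library medians. With the median of its library subtracted from each score on the log2 scale, the Tau P301S difference was 0.96 for Prnd, 0.56 for Mapt (limma, adjusted p = 0.127) and 0.39 for Prnp (adjusted p = 0.315). For Thy1 it was 0.01 after centring, on the other side of 0 from the uncentred value.

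At 6 months the first question was the effect of the N40K transgene, averaged over 5xFAD status (6 carriers against 6 others). None of the 4 genes tested passed (limma; 2 at an unadjusted p under 0.05), where 10.8% of all genes passed as higher and 0.936% as lower. Over all genes 29.1% had an unadjusted p under 0.05, and the median change was 0.09. Carriers and others overlapped in all 4 genes, while 5.11% of all genes were higher and 0.395% lower with no overlap. By adjusted p in either direction 11.7% of all genes passed.

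Prnd had 0.0215 ± 0.00288 with N40K and 0.0177 ± 0.00266 without (SD, n = 6 each), a log2 difference of 0.26 (SE 0.111; limma, unadjusted p = 0.0441, adjusted p = 0.158). Its highest values were in N40K replicate 1 (0.024) and dTg replicate 2 (0.025), which also had the highest medians over all genes. Without both, the difference was 0.17 (adjusted p = 0.501), and after centring it was 0.12 (adjusted p = 0.374).

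Mapt stood at 0.007 in all 3 WT libraries, at 0.009, 0.007 and 0.007 in N40K, at 0.008, 0.007 and 0.007 in 5xFAD, and at 0.008, 0.010 and 0.009 in dTg mice. The dTg group had the highest mean (0.009 ± 0.001, SD, n = 3), and it overlapped N40K and 5xFAD. All 3 dTg libraries were above those of WT, as in 18.4% of all genes. The N40K difference was 0.17 (SE 0.0651; limma, unadjusted p = 0.0309, adjusted p = 0.128), and 0.03 after centring (adjusted p = 0.677). Without N40K replicate 1 and dTg replicate 2 it was 0.09 (adjusted p = 0.324). As with Prnd, those 2 libraries held the highest Mapt scores of their groups.

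Prnp lay between 0.002 and 0.004 in all 6-month libraries: 0.003, 0.002 and 0.003 in WT and again in N40K, 0.002, 0.003 and 0.002 in 5xFAD, and 0.003, 0.004 and 0.003 in dTg mice. All 4 groups overlapped. The N40K difference was 0.15 (SE 0.0979; limma, adjusted p = 0.344) with an interval from −0.07 to 0.37, and 0.02 after centring. Without N40K replicate 1 and dTg replicate 2 it was 0.08 (adjusted p = 0.754).

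Thy1 scores were 0.015, 0.012 and 0.014 in WT, 0.016, 0.013 and 0.015 in N40K, 0.015, 0.017 and 0.016 in 5xFAD, and 0.012, 0.013 and 0.014 in dTg mice. The means ran from dTg (0.013 ± 0.001) over WT (0.0137 ± 0.00153) and N40K (0.0147 ± 0.00153) to 5xFAD (0.016 ± 0.001; SD, n = 3 each), with overlap between neighbours. All dTg libraries were below all 5xFAD libraries, as in 371 of 15705 genes (2.36%), while N40K and WT overlapped. The averaged N40K difference was −0.09 (SE 0.0659; limma, adjusted p = 0.42). It was −0.22 after centring (adjusted p = 0.0601), so Thy1 was lower in carriers relative to the median of all genes in that setting, without passing. Without N40K replicate 1 and dTg replicate 2 it was −0.12 (adjusted p = 0.456). The test of whether the N40K effect differed with 5xFAD status gave −0.35 (SE 0.132; limma, unadjusted p = 0.0246, adjusted p = 1). Over all genes 2.87% had an unadjusted p under 0.05 in this interaction and 0.0191% passed, 0.00637% as positive and 0.0127% as negative. For Mapt, Prnp and Prnd the interaction was 0.14, 0.30 and 0.07 (adjusted p = 1 each).

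The 5xFAD effect, averaged over N40K status, compares these genes with and without the 5xFAD transgenes. None of the 4 tested passed (limma; 0 at an unadjusted p under 0.05), where 0.0446% of all genes passed (0.0255% higher, 0.0191% lower) and 6.17% had an unadjusted p under 0.05. All 4 overlapped between the sides, against 0.153% of genes higher and 0.236% lower with no overlap. Mapt had 0.00817 ± 0.00117 with the transgenes and 0.00733 ± 0.000816 without (SD, n = 6 each), a difference of 0.12 (adjusted p = 0.874). The differences of Prnd (0.07), Prnp (0.04) and Thy1 (0.03) had an adjusted p of 1 each. The 95% intervals reached from −0.18 to 0.32 for Prnd, from −0.18 to 0.27 for Prnp and from −0.12 to 0.18 for Thy1, the donor of the promoter commonly used in the 5xFAD line.

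**Figure D3:**
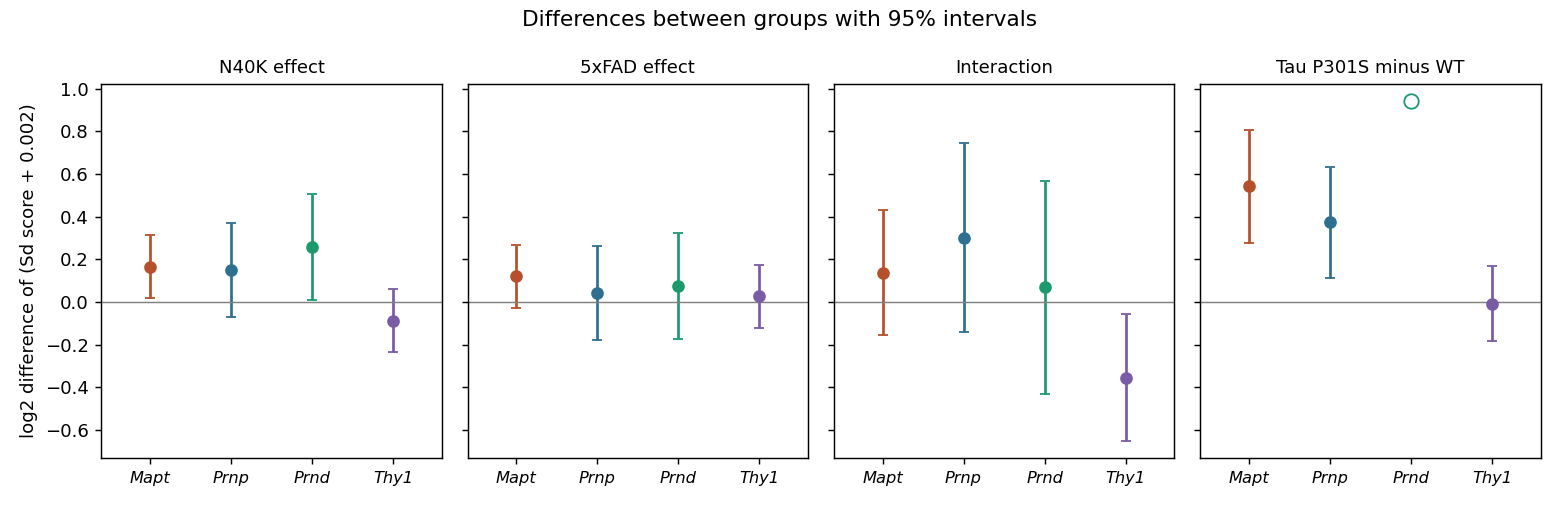
Differences of log2(score + 0.002) for Mapt, Prnp, Prnd and Thy1 in 4 comparisons, with 95% intervals from limma; the hollow circle is the Prnd value in Tau P301S mice, which has no interval because the gene was chosen for it. Mapt (0.54) and Prnp (0.37) have intervals above 0 in Tau P301S mice without passing the adjustment over all genes. So do Mapt and Prnd for N40K, and the interaction of Thy1 has an interval below 0, also without passing. The 5xFAD differences all have intervals across 0.

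The chromosomal neighbours of these loci are described beside them. Up to 3 protein-coding genes on each side of each locus were looked up by their GENCODE M21 symbols. Of 24 symbols, 16 were found at 6 months and 14 at 12 months. A gene listed there under another symbol would have been missed. None of the 4 measured neighbours of Prnp and Prnd passed in Tau P301S mice (limma; 0 at an unadjusted p under 0.05). Over all genes 0.00658% passed there and 8.28% had an unadjusted p under 0.05. With so few genes passing, these counts cannot show whether the neighbours had moved. Rassf2, a tumour suppressor gene and the nearest gene after Prnd, had 0.009 ± 0.0019 in Tau P301S against 0.00775 ± 0.000957 in WT (SD, n = 6 and 4; difference 0.16, adjusted p = 0.804). Slc23a2, a vitamin C transporter gene, was at −0.16 (adjusted p = 0.601), Smox, a polyamine oxidase gene, at −0.21 (adjusted p = 0.674) and Adra1d, an adrenergic receptor gene, at −0.03 (adjusted p = 0.975). The median of the 4 was −0.10, against −0.02 over all genes. Of 4 measured neighbours of Mapt none passed in Tau P301S mice either (median 0.04; 0 at an unadjusted p under 0.05). With N40K the Mapt neighbour Cdc27, of the anaphase-promoting complex, rose from 0.0103 ± 0.00103 to 0.013 ± 0.000894 (SD, n = 6 each; limma, adjusted p = 0.0245). Cdc27 missed the threshold after centring (adjusted p = 0.131) and without both libraries of highest median (0.108). For the 5xFAD effect none of 3 measured neighbours of Thy1 passed (limma; 1 at an unadjusted p under 0.05). That 1 was Usp2, higher by 0.19 with no overlap of libraries (limma, unadjusted p = 0.00985, adjusted p = 0.553). Over all genes 0.153% were higher in that way.

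Related genes were counted in lists chosen with earlier results of these data known. Of the 6 measured genes of the prion protein family and its partners none passed in any comparison. The smallest p in Tau P301S mice was that of Lrp1, an endocytic receptor gene, at 0.08 (limma, adjusted p = 0.767). Sprn, the gene for the prion relative Shadoo and named here after its value was seen, had 0.0085 ± 0.00274 in Tau P301S and 0.0105 ± 0.0037 in WT (SD, n = 6 and 4; difference −0.25, adjusted p = 0.859), on the other side of 0 from Prnp and Prnd. Of 19 other microtubule-associated genes listed, only 11 were found by symbol at 12 months and 9 at 6 months. None of the 11 passed in Tau P301S mice (median 0.11). The smallest p was that of Dclk1, a doublecortin-like kinase, at 0.29 (limma, unadjusted p = 0.00313, adjusted p = 0.352). None of 21 tau kinase and phosphatase genes (median 0.00), 20 genes of the APP family, its secretases and adaptors (median −0.03) or 23 other GPI-anchored surface genes (median 0.06) passed in Tau P301S mice. At an unadjusted p under 0.05 these 3 lists had 1, 3 and 1 genes, where 8.28% of all genes did, and the smallest p in each was that of the tau kinase Mark1, the γ-secretase subunit Ncstn and the Lynx-family gene Ly6h.

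**Figure D4:**
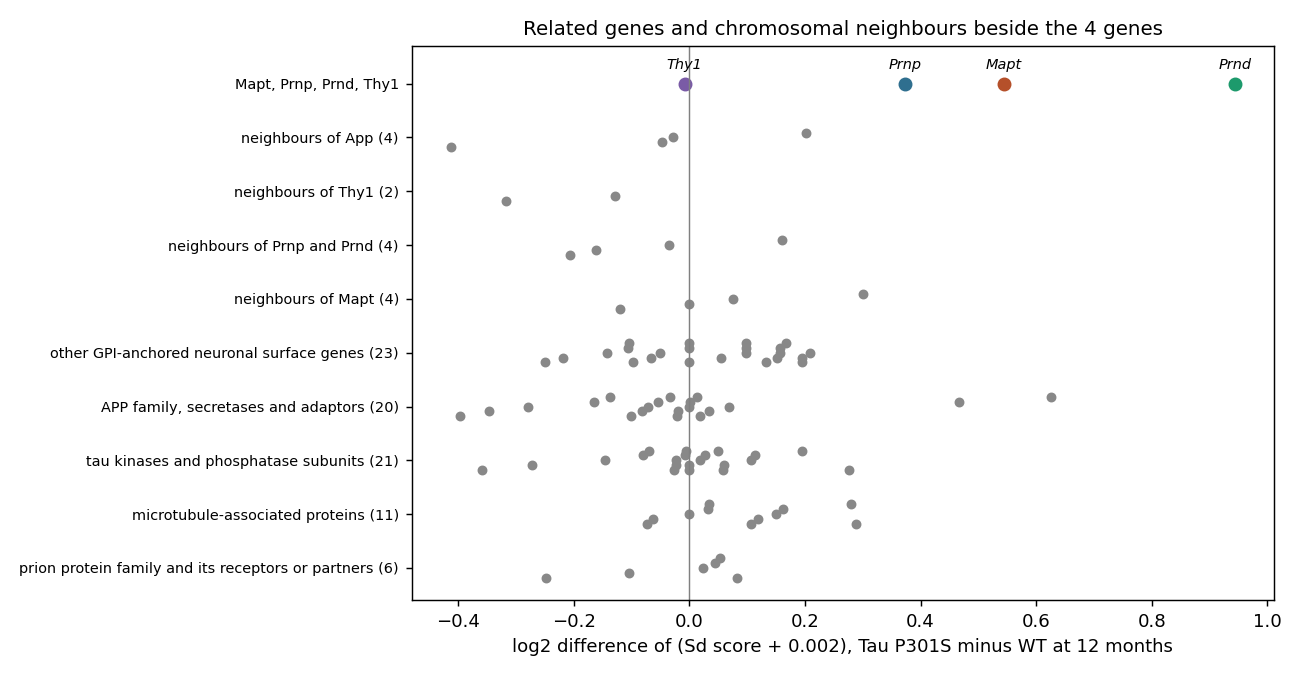
Differences of log2(score + 0.002) between Tau P301S and WT mice at 12 months for the measured genes of each list and for chromosomal neighbours (grey points, number in parentheses), with Mapt, Prnp, Prnd and Thy1 in the top row. The Prnd value of 0.94 is the one the gene was chosen for, so the other points are not ranked against it. The 4 neighbours of Prnp and Prnd lie between −0.21 and 0.16.

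With N40K some genes of the same lists passed, where 10.8% of all genes passed as higher and 0.936% as lower. The counts below are to be read beside these shares and do not set the lists apart from the 4 genes. Of 21 genes of the APP family and its processing 5 rose and none fell (over all genes 10.8% rose), led by the sheddase gene Adam17, from 0.0217 ± 0.0028 to 0.0277 ± 0.00197 (adjusted p = 0.00998). Of 21 tau kinase and phosphatase genes 3 rose, the tau tubulin kinases Ttbk2 (adjusted p = 0.0148) and Ttbk1 (0.124 ± 0.00672 to 0.177 ± 0.0355, adjusted p = 0.0308) and Dyrk1a (adjusted p = 0.039). Of 9 microtubule-associated genes Dclk1 (adjusted p = 0.0175) and Mapre1 (adjusted p = 0.0491) rose, and of 25 GPI-anchored genes the Nogo receptor gene Rtn4r did (0.0502 ± 0.00778 to 0.106 ± 0.0384; SD, n = 6 each; adjusted p = 0.0225). After centring, Adam17, Ttbk1, Rtn4r and the adaptor Apbb2 passed and the other 8 of the 12 called list and neighbour genes did not (limma). Without N40K replicate 1 and dTg replicate 2, Adam17, Ttbk1, Ttbk2, Dyrk1a and the adaptor Apba1 passed. The other 7 did not, with adjusted p of 0.0523 for Rtn4r, 0.0681 for Dclk1, 0.0695 for Apbb2 and 0.102 for Mapre1. Adam17 and Ttbk1 passed in both settings. Ttbk1, however, missed the threshold in 8 of 12 fits that left out a single library (limma, adjusted p up to 0.0731). Snrnp70, the mouse homologue of the N40K transgene, was lower with N40K but did not pass (limma, unadjusted p = 0.0182, adjusted p = 0.0935). It had 0.0415 ± 0.00207 with N40K and 0.0447 ± 0.000816 without (SD, n = 6 each), a difference of −0.10. Whether reads from the transgene were counted to Snrnp70 is not known.

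The genes whose scores ran most like those of each gene were sought by Pearson's r of the log2 scores, as a description over the libraries of a table. They were taken from genes with a mean score of at least 0.02, 7390 at 6 months and 5936 at 12 months, and share libraries, groups and rounding. At 12 months, over 10 libraries, the 3 closest to Prnd were AK034698 (r = 0.891), Zranb3 (0.888) and Gfm2 (0.881). For Mapt they were Prnd (0.913), Pdik1l (0.912) and Csf1 (0.904). Prnd reached the minimum mean only through its Tau P301S scores (WT mean 0.0178), which chose it, so nothing is read from its place here. Those closest to Prnp were Gtf2h1 (0.94), Wiz (0.917) and Snx8 (0.916), and those closest to Thy1 were Neu1 (0.967), Srsf2 (0.962) and AK081136 (0.945). At 6 months, over 12 libraries, Prnd ran closest to Sec14l2 (0.97), Hrk (0.968) and Nt5c3l (0.963), Mapt to Napg (0.965), Sugp1 (0.949) and Dact2 (0.929), Prnp to Metap2 (0.942), Fam45a (0.93) and Riok3 (0.918), and Thy1 to Mettl11b (0.885), Rem2 (0.847) and Llph (0.839). No gene was among the 3 closest to the same gene in both tables. Prnd could not be among them at 6 months, where its mean was under 0.02.

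Prnp and Prnd ran together in both tables, with r = 0.897 over the 10 libraries at 12 months and 0.878 over the 12 at 6 months. Mapt and Prnd had r = 0.913 at 12 and 0.689 at 6 months, and Thy1 had r between −0.151 and 0.346 with each of the other 3. These values include the differences between groups and the general shift of some libraries, and Prnp had few distinct scores. At 12 months those with Prnd include the difference for which it was chosen.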

How the data were processed

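Cortex RNA was poly(A)-selected and sequenced as stranded paired ends, per the labels' protocols. The authors deposited 1 ratio per gene and library, the Sd score, rounded to 3 decimals. CASAVA, STAR, BWA, bedtools 2.16.1 and the mm9 build are named in the submitters' processing notes, while the formula of the score, the counter, the annotation and the depth are not stated there or in the labels. Values were analysed as log2(score + 0.002) without recentring. limma 3.58.1 (R 4.3.3) was fitted on every gene of a table with 1 term per group, and p-values were adjusted by Benjamini-Hochberg over the table (threshold 0.05, two-sided, 8 residual and 1.2 or 1.11 prior degrees of freedom). The fit was also run on simulated scores, with large changes added only to genes with a mean score of at least 0.02. That run does not show how the fit handles the lower scores and smaller differences of the genes tested here. The labels number replicates without naming animals, so p-values measure the spread between these libraries.

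The members and lists were chosen with earlier results of these data known. Besides the 5 genes, the text names list genes past the threshold or of smallest p with N40K or in Tau P301S mice, though not all of them. It also names some neighbours of Prnp, Prnd, Mapt and Thy1, and Snrnp70. The 3 genes of highest r per gene and table are named as well, without predicted genes. List genes for the 5xFAD effect and the interaction, and neighbours of App, are not named. Astn1 and Sprn were named after their values were seen. Alternatives were other pseudocounts, centring, a score minimum, limma's variance prior with a trend and robust fit, a replicate block, exact permutation tests and leaving out libraries. A shift of 0.0005 in each score against the difference and leaving out pairs of libraries by median were added after the data were seen. Gene models came from GENCODE M21 and promoters from RefSeq (GRCm38.p6, 2 of the 5 genes used), and no coordinates of another build were joined to the scores.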

Additional observations from a re-analysis of the deposited data

Results flagged for a closer look

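In 2 of 8 sets of libraries examined, a gene in a group of 4 or 6, the most extreme library stood apart from the others. Mapt in Tau P301S replicate 2 was 0.004 where the other 5 libraries were 0.005. Thy1 in Tau P301S replicate 6 was 0.007 where the other 5 were 0.006. Both gaps are 1 step of the deposited rounding.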

How the results depend on the processing

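None of the 4 genes tested at 6 months passed under any setting that was run. Of the 3 tested in Tau P301S mice 1 passed, Mapt, when WT replicates 3 and 4 were left out, and none otherwise. The Prnd difference in Tau P301S mice was 0.73 with a pseudocount of 0.01, which draws low scores together, and 0.88 to 1.00 when single libraries were left out. A shift of every score by 0.0005 against the difference turned Prnp to −0.157 and Thy1 to 0.00215 for N40K, Mapt to −0.0294, Prnp to −0.266 and Thy1 to −0.0624 for 5xFAD, and Thy1 to 0.169 in Tau P301S mice. Thy1 was 0.0115 there after centring and 0.125 without WT replicates 3 and 4. Leaving out single libraries moved the 5xFAD difference of Prnp from −0.00982 to 0.0707 and of Thy1 from −0.0127 to 0.0574, the interaction of Prnd from −0.0518 to 0.209, and the Tau P301S difference of Thy1 from −0.085 to 0.0359. Libraries of the same replicate number showed no common deviation (median r −0.02 over 18 pairs at 6 months and −0.02 over 4 pairs at 12 months). The labels do not say whether the numbers pair the samples, and these r values cannot settle it. With the replicate block the Tau P301S difference was 0.923 for Prnd, 0.525 for Mapt (limma, adjusted p = 0.485) and 0.348 for Prnp (0.485), and 0 genes of those described passed. A minimum mean score of 0.02 kept only Prnd at 12 months, through the Tau P301S scores for which it was chosen, so it tests nothing. Of the 12 list and neighbour genes called with N40K, Dclk1, Ttbk2 and Adam17 passed without each single library, though Dclk1 did not without both libraries of highest median (adjusted p = 0.0681), and the other 9 missed the threshold at least once (adjusted p up to 0.112 for Mapre1, without dTg replicate 2). The rounding limits what can be seen in Mapt, Prnp and App, and in called list genes with scores as low. With N40K the means of Dyrk1a and Apba1 each went from 0.003 to 0.00367, near the rounding step of 0.001. Those of Apbb2 went from 0.00217 to 0.00333, of Dclk1 from 0.00317 to 0.00433 and of Ttbk2 from 0.00383 to 0.00517. The shift of 0.0005 was not run for the list genes, so how far their calls rest on rounding is not known.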
